A study of Homo sapiens with 6 samples.

Results

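The MYC network is a small family of transcription factors that share the DNA-binding partner MAX, and 10 of its genes were followed here: MYC, MYCN, MYCL, MAX, MGA, MNT, MXD1, MXD3, MXD4 and MXI1. They were chosen by symbol and not by their measured change, but with earlier results of these data known. Of the 10, 9 were matched among 23227 genes, and MYCN was not analysed here. All 9 passed the filter on low counts that left 14635 genes for testing. The study sequenced RNA from MV4-11, an established acute myeloid leukaemia line, in 3 control libraries labelled as untreated and 3 libraries with a knockdown of ENO1, which encodes the glycolytic enzyme alpha-enolase. All 6 are labelled wild type, and the knockdown columns carry the name of 1 short hairpin (sh2). Control names carry the letters NC, and whether a control hairpin was used is not given.

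MYC, MYCN and MYCL proteins bind DNA as pairs with MAX at the E-box, whose letters are CACGTG, and activate genes of ribosome production, metabolism and the cell cycle. The MXD proteins (MXD1, MXI1, MXD3, MXD4) and MNT pair with the same MAX, occupy the same sites and recruit the SIN3 and histone deacetylase corepressor. MGA also pairs with MAX and belongs to a variant polycomb complex, PRC1.6. Acute myeloid leukaemias with KMT2A fusions, such as the one in MV4-11, are known for their dependence on MYC. The ENO1 mRNA can also yield a short nuclear protein, MBP-1, that is known to bind the MYC promoter and repress it. Counts per gene do not separate that product from the enolase.

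Library totals ran from 20044602 to 26373960 counts and were higher in the controls. Mitochondrially encoded genes took 6.69 to 6.88% of the counts in control libraries and 9.27 to 9.69% under knockdown. By the chi-square statistic of their counts per degree of freedom, control replicate 2 (2.84 and 3.13) and knockdown replicate 3 (3.99 and 4.16) differed more from the rest of their groups than the remaining pairs did from each other (2.1 and 2.28). Myeloid markers summed to 1997 to 2026 CPM (counts scaled to a common library size, with TMM factors) in control libraries and 1850 to 1882 CPM under knockdown, where 3 of the 9 rose and 5 fell. The largest part of that sum was the receptor FLT3, which rose from 808.4 ± 10.2 to 1018 ± 29.5 CPM, and the leukocyte phosphatase PTPRC (CD45) rose from 88.0 ± 3.8 to 188.5 ± 11.7 CPM (SD, n = 3). Lysozyme LYZ fell from 274.1 ± 3.43 to 51.4 ± 1.01 CPM and the granule enzyme MPO from 22.4 ± 1.19 to 3.66 ± 0.278 CPM (SD, n = 3). The receptor CSF3R fell from 112.2 ± 4.18 to 24.6 ± 1.17 CPM (SD, n = 3). The log2 fold changes of LYZ, MPO and CSF3R were -2.42, -2.61 and -2.19. Mean levels went from 126.0 to 147.7 CPM for CD33, from 322.1 to 255.8 CPM for SPI1 and from 262.2 to 170.9 CPM for CEBPA. These myeloid markers were named here after their values were seen. LYZ, CEBPA, KRT8 and KRT18 share over 10% of their stretches of 50 bases with transcripts of other genes and are uncertain. The T cell markers CD2, CD3E and CD3G were at 0 in the control libraries and summed to at most 0.279 CPM in a knockdown library. The keratins KRT8 and KRT18 rose, and the epithelial list summed to 18.1 to 20.0 CPM in control libraries and 44.9 to 47.8 CPM under knockdown, while EPCAM was at 0 in control libraries and 0.0303 CPM under knockdown. B cell markers summed to 3.45 to 4.67 CPM in control libraries and 6.17 to 7.02 CPM under knockdown, where 2 of 3 tested rose. Of 2 tested megakaryocyte markers 1 rose, with sums of 3.16 to 4.59 and 4.54 to 6.15 CPM, and fibroblast markers summed to at most 0.541 CPM. The part of depth, mitochondrial share and these markers in the results was not tested. In bulk RNA, fewer cells of a type and less RNA per cell cannot be told apart. Whether the libraries came from separate cultures is not stated, so p-values reflect only the spread among these 6 libraries, possibly a technical one.

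ENO1 had 84016, 79566 and 80058 counts in control libraries and 2225, 2225 and 2070 under knockdown, so the targeted gene followed the labels, and 3.13% of the control level remained.

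Of the 9 measured members 6 fell in the knockdown, 1 rose and 2 had no call (edgeR quasi-likelihood test, Benjamini-Hochberg adjusted p below 0.05). Those that fell were MYC, MYCL, MAX, MXI1, MXD3 and MXD1, so the activators, the shared partner and most of the MXD antagonists moved in 1 direction. MXD4 rose, and MNT and MGA did not pass. Over all tested genes, 59.9% were called, 30.5% as lower and 29.4% as higher, so the 7 calls among 9 members stand beside a background in which most genes were called. The share of members that fell was above that background, and no test of that share was made. Groups did not overlap for 7 of the 9 members, against 64.3% of all tested genes. The median log2 fold change of the members was -0.51, beside 0.00 over all tested genes.

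Promoter sequence was matched for 8 of the 9 measured members in RefSeq windows that run from 250 bases before to 50 bases after a gene's start (GRCh38.p14). A gene with several starts had several windows and counted as holding a motif if any of them did. No window was matched for MYC, so its promoter was not searched. The E-box CACGTG, which reads the same on both strands, was in 2 of the 8, MXD4 and MNT. The same letters were in the windows of 12.5% of 10540 tested genes that had one. The related motif CACGCG, searched on both strands, was in 3 of the 8 members, MGA, MXD3 and MXI1, and in 22.3% of tested genes. MGA and MXI1 had several windows, and only some of those held it. No member held both motifs. The stretches printed here lie before the start and outside annotated exons, with the E-box in capitals. MXD4 and MNT are shown because they hold it, and MYCL and MAX because they had the deepest falls and do not.
MXD4 (GRCh38.p14, chr4:2262295-2262359, minus strand): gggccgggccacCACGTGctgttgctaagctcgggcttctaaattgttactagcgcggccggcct
MNT (GRCh38.p14, chr17:2401119-2401310, minus strand): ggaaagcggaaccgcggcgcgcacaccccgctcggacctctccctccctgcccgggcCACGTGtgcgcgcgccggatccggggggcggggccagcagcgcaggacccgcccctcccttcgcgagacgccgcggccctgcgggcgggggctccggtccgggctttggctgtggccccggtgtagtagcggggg
MYCL (GRCh38.p14, chr1:39902014-39902140, minus strand): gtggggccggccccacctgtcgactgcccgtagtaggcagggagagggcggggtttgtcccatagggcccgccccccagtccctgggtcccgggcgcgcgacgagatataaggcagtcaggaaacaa
MAX (GRCh38.p14, chr14:65101686-65101934, minus strand): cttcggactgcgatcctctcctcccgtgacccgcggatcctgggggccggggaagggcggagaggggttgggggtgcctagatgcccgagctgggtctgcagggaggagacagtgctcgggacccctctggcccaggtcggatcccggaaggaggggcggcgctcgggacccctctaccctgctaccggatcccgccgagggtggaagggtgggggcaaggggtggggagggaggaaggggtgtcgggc
The MYCL and MAX stretches lie within their annotated genes, whose outermost starts are further upstream, and the MXD4 and MNT stretches lie ahead of theirs. A match of letters is a description and not evidence of binding, and no binding was measured.

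MYC (ENSG00000136997, GRCh38 chromosome 8, 127735434 to 127741434, plus strand), the activator that dominates in these cells, was the most abundant member in every library. Its level was 560.8, 562.4 and 575.3 CPM in control libraries and 318.1, 314.4 and 305.9 CPM in the knockdown libraries. The groups were far apart, and the libraries within a group were close to each other. The knockdown level was 55.3% of the control level, a log2 fold change of -0.86 (approximate standard error 0.029, edgeR adjusted p = 1.49e-19). Only 4.99% of tested genes had a lower log2 fold change. Per kilobase of exon, MYC was above 99.1% of tested genes in the controls and still above 98.1% under knockdown.

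MYCL (ENSG00000116990, GRCh38 chromosome 1, 39895426 to 39902256, minus strand), the paralog first found in lung cancer, was scarce and fell further than MYC. Its counts were 222, 239 and 214 in control libraries and 82, 74 and 59 under knockdown, or 8.56, 9.80 and 8.78 CPM against 3.81, 3.36 and 2.90 CPM. Every knockdown library was below every control. The log2 fold change was -1.43 with a standard error of 0.135 (edgeR adjusted p = 6.15e-10), which left 37.2% of the control level. With so few counts its estimate was the least precise of the members. MYCL shared 4.46% of its exon bases with a gene on the opposite strand, and the strand setting of the counting is not given.

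MAX (ENSG00000125952, GRCh38 chromosome 14, 65006174 to 65102695, minus strand) is the DNA-binding partner that activators and antagonists share. It stood at 102.4, 100.9 and 102.7 CPM in control libraries and at 50.3, 53.4 and 50.5 CPM under knockdown. The spread within each group was small beside the gap between them. The level fell to 50.4% of the control, a log2 fold change of -0.99 with a standard error of 0.044 (edgeR adjusted p = 5.61e-17). Short and long forms of MAX mRNA are counted together in a table of genes.

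**Figure D1:**
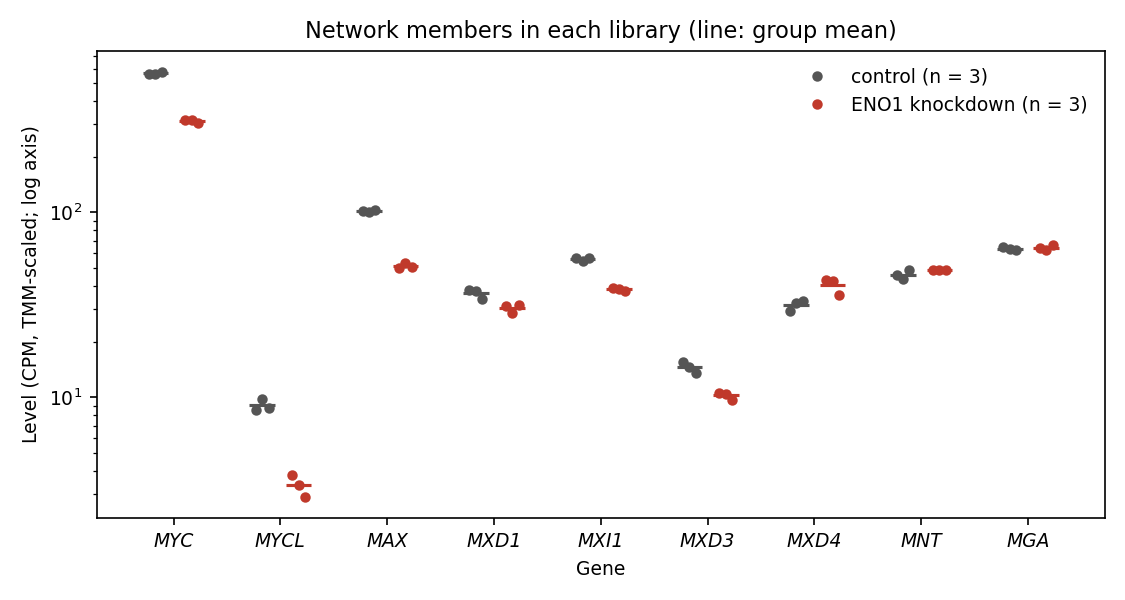
Level of each network member in each library, in TMM-scaled CPM on a log axis, for 3 control (grey) and 3 ENO1 knockdown libraries (red), with a line at each group mean. MYC, MYCL, MAX, MXD1, MXI1 and MXD3 were lower in all 3 knockdown libraries, MXD4 was higher in all 3, and the groups overlapped for MNT and MGA.

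The MXD antagonists did not all move the same way. MXI1 (ENSG00000119950, also called MXD2), the most abundant of them, was at 56.4, 54.3 and 56.9 CPM in control libraries and 38.9, 38.7 and 37.4 CPM under knockdown. Its log2 fold change was -0.54 with a standard error of 0.051 (edgeR adjusted p = 4.44e-10). MXI1 is known to have several promoters, whose products are counted together here.

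MXD1 (ENSG00000059728), the founding member of the antagonists and known to rise as myeloid cells mature, had 37.9, 37.6 and 34.0 CPM in control libraries and 31.0, 28.4 and 31.7 CPM under knockdown. All knockdown libraries were below all controls, though the nearest ones were close. The log2 fold change was -0.27 with a standard error of 0.063 (edgeR adjusted p = 0.000554). MXD3 (ENSG00000213347), known to be expressed in dividing cells, had 15.5, 14.6 and 13.5 CPM in control libraries and 10.6, 10.4 and 9.69 CPM under knockdown, a log2 fold change of -0.51 with a standard error of 0.093 (edgeR adjusted p = 3.59e-05). The MXD3 value is uncertain, since it shares 18.0% of its exon bases with RAB24 on the same strand and 22.5% with PRELID1 on the other, and 36.2% of its stretches of 50 bases also occur in transcripts of other genes.

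MXD4 (ENSG00000123933, GRCh38 chromosome 4, 2247432 to 2262294, minus strand), an antagonist known from differentiating and resting cells, was the only measured member that rose in this test. It had 29.4, 32.5 and 33.0 CPM in control libraries and 42.9, 42.5 and 35.7 CPM under knockdown. Knockdown replicate 3, which stood apart over all genes, lay closest to the controls but still above them. The log2 fold change was 0.35 with a standard error of 0.068 (edgeR adjusted p = 6.65e-05), a level 27.9% above the control. Without control replicate 2 and knockdown replicate 3 it was 0.45 (edgeR adjusted p = 4.87e-08), the highest value among the alternatives. The lowest was 0.30, without control replicate 1 (edgeR adjusted p = 0.00201).

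MNT and MGA, the larger proteins of the network, did not pass the test. MNT (ENSG00000070444), which is made in growing and resting cells alike, had 45.7, 43.5 and 48.9 CPM in control libraries and 49.0, 49.0 and 48.7 CPM under knockdown, with overlapping groups. Its log2 fold change was 0.09 with a standard error of 0.053 (edgeR adjusted p = 0.153). This depended on the scaling and the filter: MNT passed with plain library totals (0.14, edgeR adjusted p = 0.0241), with upper-quartile factors (0.13, edgeR adjusted p = 0.0415) and with genes of at least 5 CPM in 3 libraries (0.13, edgeR adjusted p = 0.0379). The MNT value is uncertain, since 12.2% of its exon bases are shared with a gene on the opposite strand and 13.0% of its stretches of 50 bases also occur in transcripts of other genes. MGA (ENSG00000174197), the scaffold of PRC1.6, had 65.1, 63.2 and 63.0 CPM in control libraries and 63.8, 62.5 and 67.0 CPM under knockdown. Its log2 fold change was 0.01 with a standard error of 0.046 (edgeR adjusted p = 0.812), and its sign changed with the settings.

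**Figure D2:**
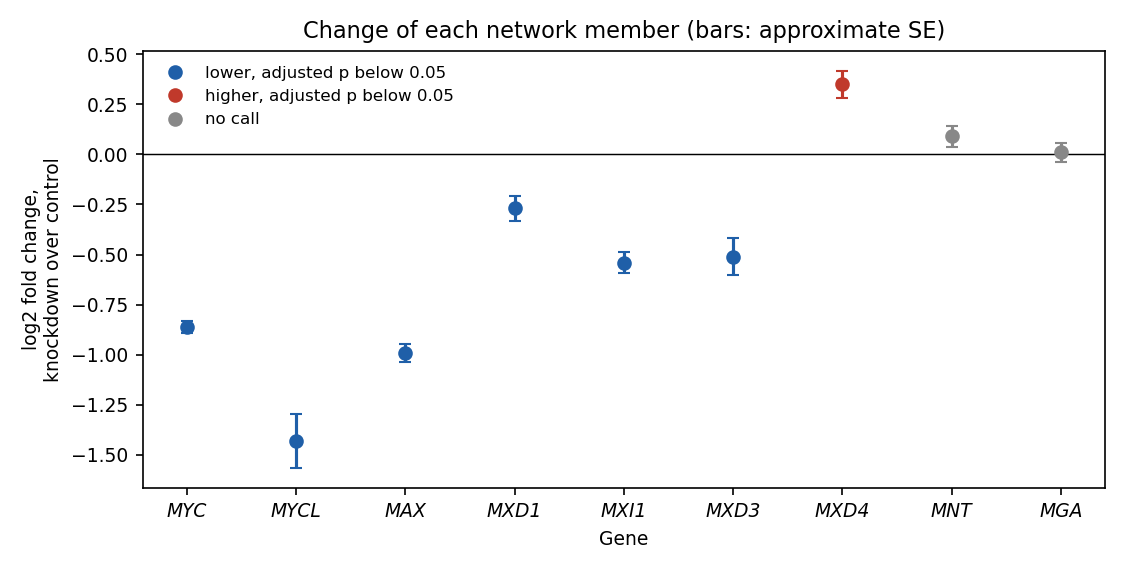
The log2 fold change of knockdown over control for each network member, with its approximate standard error as the bar, for 3 libraries in each group. MYCL (-1.43), MAX (-0.99) and MYC (-0.86) were the lowest, MXD4 (0.35) was the highest, and MNT and MGA (grey) had no call.

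Levels of different genes were compared per kilobase of the union of their exons in GENCODE release 29. In the controls the order ran from MYC at 188.7 ± 2.66 CPM per kb (SD, n = 3) over MAX at 23.0 ± 0.211 and MXI1 at 12.1 ± 0.298 to MXD1, MNT, MXD4, MGA, MXD3 and MYCL at 5.75, 5.27, 4.48, 3.61, 2.81 and 1.79 CPM per kb. The ranges of MXD1 and MNT overlapped, and all other neighbours in that order were separate. MYC made up 76.2 ± 0.237% of the summed level of the 9 genes in control libraries and 71.1 ± 0.122% under knockdown (SD, n = 3). In the knockdown MXD4, at 5.72 ± 0.574 CPM per kb, moved up to rank 4 from rank 6, with a range that overlapped that of MNT at 5.61 ± 0.019 CPM per kb (SD, n = 3), while MXD1 had rank 6 at 4.78 CPM per kb. The order of MYC, MAX and MXI1 at the top and of MGA, MXD3 and MYCL at the bottom was the same in both groups.

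MYC mRNA was lower relative to the antagonists in every knockdown library. The summed level of MXD1, MXD3, MXD4, MXI1 and MNT was 30.6, 30.1 and 30.6 CPM per kb in control libraries and 27.1, 26.5 and 25.6 CPM per kb under knockdown. MYC was 6.11, 6.22 and 6.27 times that sum in control libraries and 3.92, 3.95 and 3.98 times under knockdown, a difference of -0.65 on the log2 scale with an SD of 0.019 and 0.011 between libraries. MAX was 0.755, 0.757 and 0.757 times the sum in control libraries and 0.42, 0.455 and 0.445 times under knockdown, a difference of -0.78. The ratio of MYC to MAX moved the other way, from 8.08, 8.22 and 8.27 to 9.34, 8.69 and 8.94. For all 4 quantities the groups did not overlap, and the exact permutation test over libraries (two-sided) gave p = 0.10, also after adjustment over the 4, which is the smallest value that 3 libraries against 3 allow. These are ratios of mRNA, and protein was not measured.

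**Figure D3:**
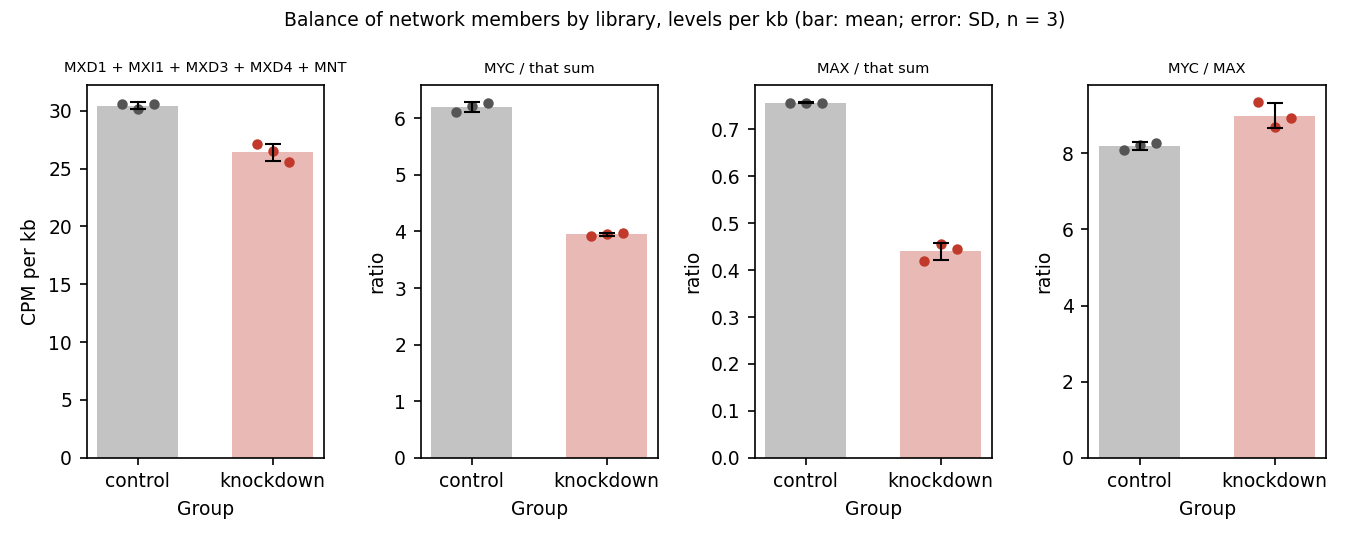
Balance of network members in each library, from levels in CPM per kb of exon: the summed antagonists, MYC over that sum, MAX over that sum, and MYC over MAX (bars are means with SD, n = 3 libraries in each group, and points are libraries). MYC over the antagonists was 6.11 to 6.27 in control libraries and 3.92 to 3.98 under knockdown, while MYC over MAX was higher in the knockdown.

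The mRNAs of MYC partners of chromatin and transcription had calls in both directions at shares near those of all tested genes. Of 16 genes 6 fell (37.5%, beside 30.5% of all tested genes) and 4 rose (25%, beside 29.4%), the median log2 fold change being -0.01. The AAA helicases RUVBL1 and RUVBL2 had log2 fold changes of -0.59 and -0.56, the actin-related ACTL6A of -0.37 and the histone methylation adaptor WDR5 of -0.24 (largest edgeR adjusted p = 1.57e-06). BRD8, KAT5, BPTF and SMARCB1 rose by 0.15, 0.18, 0.10 and 0.09. The KAT5 call was lost without control replicate 2 or 3 or knockdown replicate 1 or 2, that of BPTF without any control or knockdown replicate 2 or 3, and that of SMARCB1 without any control or knockdown replicate 1 or 2, which left 1 to 3 of the 16 genes as higher. WDR5, KAT5 and SMARCB1 share over 10% of their 50-base stretches with other genes and are uncertain.

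The SIN3 and histone deacetylase corepressor is recruited by the MXD proteins and MNT. Of its 14 listed genes 8 fell (57.1%, beside 30.5% of all tested genes) and 3 rose (21.4%, beside 29.4%), the median being -0.18. SIN3B, a scaffold that binds the MXD proteins, rose from 47.1 ± 1.96 to 73.4 ± 5.67 CPM (SD, n = 3; log2 fold change 0.64, edgeR adjusted p = 6.07e-11), while SIN3A was at 0.08 (edgeR adjusted p = 0.0721). The deacetylase HDAC2 had a log2 fold change of -0.43, the histone chaperone RBBP7 of -0.26 and the subunit SAP30 of -0.71. ARID4A and ARID4B both had a log2 fold change of 0.14, and each lost its call without any 1 of the controls or of knockdown replicates 2 and 3, with edgeR adjusted p up to 0.103 and 0.304. ARID4B is also uncertain for shared sequence. Without control replicate 1, 2 or 3 or knockdown replicate 2 or 3, SIN3B was the gene still called as higher. SIN3A was named after its value was seen.

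In the PRC1.6 complex of MGA 6 of 11 genes fell in edgeR (54.5%, beside 30.5% of all tested genes). None rose (0%, beside 29.4%), and the median was -0.20. At an unadjusted p below 0.05 edgeR, too, gave 0 as higher, as did DESeq2 and limma-voom after adjustment, while 1 gene was called higher without control replicate 2. The dimerization partner TFDP1 fell from 457.4 ± 3.13 to 283.2 ± 4.44 CPM (SD, n = 3; log2 fold change -0.69, edgeR adjusted p = 1.6e-17), the heterochromatin protein CBX3 had -0.68 and the complex's own ring finger subunit PCGF6 -0.31. CBX3 is also on the list of genes activated by MYC, and CBX3 and PCGF6 are uncertain for shared sequence. The parallel MLX branch, in which MLX can also pair with MXD1, MXD4 and MNT, rose in all 3 genes (100%, beside 29.4% of all tested genes). MLX rose by 0.28, the glucose sensor MLXIP (MondoA) by 0.21 and MLXIPL (ChREBP) by 0.67 on the log2 scale (largest edgeR adjusted p = 0.000914). MLX is uncertain, since 16.9% of its stretches also occur in transcripts of other genes.

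Factors known to act on the MYC gene or its mRNA went both ways. Of 17 tested (of 19 listed) 10 were lower (58.8%, beside 30.5% of all tested genes). Another 5 were higher (29.4%, the share of all tested genes), and the median was -0.21. The RNA-binding proteins ELAVL1 and HNRNPD, which bind AU-rich mRNA, had log2 fold changes of -0.44 and -0.40. PVT1, the long noncoding RNA next to MYC, fell from 60.7 ± 0.245 to 42.7 ± 1.54 CPM (SD, n = 3; log2 fold change -0.51, edgeR adjusted p = 1.02e-09). The MYC mRNA stabilizer IGF2BP1 rose by 0.38, the m6A reader YTHDF2 by 0.36, STAT5A by 0.56, CTNNB1 (beta-catenin) by 0.13 and CTCF by 0.10. The paralogs IGF2BP2 and STAT5B, on the same list, fell, with log2 fold changes of -0.21 and -0.33 (edgeR adjusted p = 1.27e-05 and 3.22e-07). Their control means were 141.6 and 86.1 CPM, beside 85.6 CPM for IGF2BP1 and 24.3 CPM for STAT5A. Both paralogs were picked with their results already known. The CTCF call was lost without control replicate 3 or knockdown replicate 1 (edgeR adjusted p = 0.128 and 0.0501), and CTCF is uncertain for shared sequence.

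In the list of factors that act on MYC protein stability 8 of 18 genes fell (44.4%, beside 30.5% of all tested genes) and 6 rose (33.3%, beside 29.4%), the median being -0.05. The kinase PIM1, known to stabilize MYC, fell from 315.3 ± 4.03 to 214.6 ± 2.05 CPM (SD, n = 3; log2 fold change -0.56), whereas its paralog PIM2 rose from 32.0 ± 0.805 to 59.7 ± 3.44 CPM (SD, n = 3), by 0.90. Of genes whose products are known to promote MYC degradation, the ligase subunit FBXW7 rose by 0.28, the kinase GSK3B by 0.36 and the phosphatase subunit PPP2R5A by 0.68. The mitotic kinase PLK1 had a log2 fold change of -0.46, and its value is uncertain for shared sequence. USP37 rose by 0.21 and is uncertain for the same reason.

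Among genes known to be activated by MYC 57 of 70 fell and 5 rose, the median log2 fold change being -0.27, beside 30.5% lower and 29.4% higher over all tested genes. Lactate dehydrogenase LDHA fell from 1899 ± 12.8 to 939.8 ± 24.4 CPM, hexokinase HK2 from 178.5 ± 4.24 to 101.1 ± 2.89 CPM, and the nucleolar methyltransferase FBL from 400.2 ± 7.99 to 266.0 ± 2.29 CPM (SD, n = 3). The helicase subunit MCM4 had a log2 fold change of -0.70. The members that rose were AIMP2 by 0.30, EIF4A1 by 0.29, the nucleolar UTP20 by 0.26, the cyclin CCND2 by 0.19 and the repair enzyme APEX1 by 0.12. AIMP2, EIF4A1 and CCND2 are uncertain for shared sequence, and CCND2 lost its call without control replicate 1 or knockdown replicate 3. The list was written from general knowledge with earlier results of these data known, so its count is not independent evidence of a direction. Of 57 of these genes with a promoter window 52.6% held CACGTG, against 12.5% of tested genes. The share was 52.2% of the 46 that fell and 54.5% of the 11 others. Over all tested genes with a window, CACGTG was in 14.1% of those that fell, 12% of those that rose and 11.6% of those not called.

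Of 16 genes known to be repressed by MYC 14 were tested, of which 8 rose (57.1%, beside 29.4% of all tested genes) and 2 fell (14.3%, beside 30.5%), with a median of 0.38. The cyclin-dependent kinase inhibitors CDKN1B (p27) and CDKN2C (p18) rose from 89.6 ± 1.79 to 138.2 ± 2.89 CPM and from 122.3 ± 4.86 to 160.7 ± 1.31 CPM (SD, n = 3), by 0.63 and 0.39 on the log2 scale (edgeR adjusted p = 4.65e-14 and 3.58e-10). Some of the 8 were scarce: CDKN2B went from 1.72 to 5.42 CPM, CDKN1C from 0.768 to 1.57 CPM and RGS2 from 0.482 to 1.10 CPM. FTH1 also rose and is uncertain, since 57.4% of its 50-base stretches occur in transcripts of other genes. These genes were named after their values were seen. CDKN1A (p21), also named after its value was seen, was at 0.17 and did not pass (edgeR adjusted p = 0.0871). The 2 that fell were NDRG1, which is also known to respond to hypoxia, from 283.9 ± 2.93 to 37.1 ± 0.795 CPM (SD, n = 3), and the myeloid transcription factor CEBPA at -0.62, whose value is uncertain for shared sequence.

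**Figure D4:**
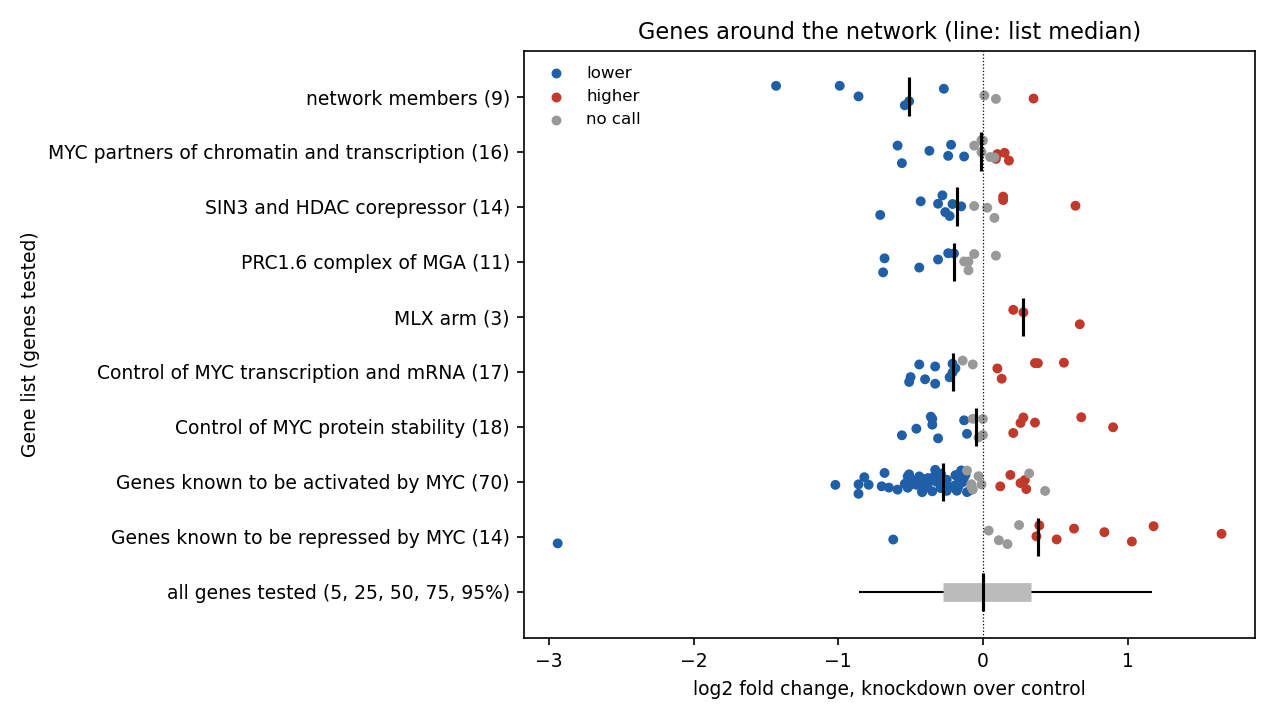
The log2 fold change of knockdown over control for every tested gene of each list (points, blue lower, red higher, grey no call), with the list median as a line, and the spread of all tested genes as a bar from the 25th to the 75th percentile with whiskers at the 5th and 95th. The members' median was -0.51, that of genes known to be activated by MYC -0.27 and that of genes known to be repressed by it 0.38.

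Among 2310 genes with a mean of at least 100 CPM, the 3 whose profile over the 6 libraries lay closest to that of MYC were MARS1, IMPDH1 and GARS1. The measure was the root mean square difference in log2 CPM after each gene was set relative to its control mean, and it was 0.0226, 0.0255 and 0.026. MARS1 and GARS1 encode the aminoacyl-tRNA synthetases for methionine and glycine and had log2 fold changes of -0.82 and -0.84. IMPDH1, an enzyme of guanine nucleotide synthesis, was also at -0.84. With 2 groups of 3 libraries the measure mostly compares the size of the fall.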

How the data were processed

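The submitters' processing notes name HISAT2 2.0.5 and hg38; for the counter, the annotation and the strand setting, nothing is given in the sources used here. The authors deposited whole-number counts per Ensembl gene, not normalized, in 1 table with a column per library, per the file headers. Columns were matched to samples by group and replicate number. The test was that of edgeR 4.0.16 under R 4.3.3 (TMM, filterByExpr, robust quasi-likelihood test, two-sided, Benjamini-Hochberg over 14635 genes, threshold 0.05). The procedure was also run on simulated data with a common dispersion and few changed genes. That run does not cover data in which most genes are called. Standard errors are approximate, the log2 fold change divided by the root of the F statistic. Rise and fall refer to that test. Positions, exon lengths and shared 50-base stretches came from GENCODE release 29 (GRCh38), promoters from RefSeq; members, list genes and markers with over 10% shared stretches are called uncertain. Named genes are the members, ENO1, in each list up to 4 called genes by smallest adjusted p, those called against their list, and 3 like MYC. Alternatives were other scalings and filters, DESeq2 1.42.0, limma-voom 3.58.1, a replicate block and libraries left out. Members and lists were chosen with earlier results of these data known. Some items are not reported here.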

Additional observations from a re-analysis of the deposited data

How the results depend on the processing

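The calls of all 9 members were the same under 12 of 15 alternatives; in the other 3 (upper-quartile factors, plain library totals, at least 5 CPM in 3 libraries) MNT was also called, which made 2 members higher. The log2 fold change of MYC ran from -0.88 to -0.80 over the alternatives and from -0.87 to -0.84 with 1 library left out. MXD4 ran from 0.30 to 0.45 and MXD1 from -0.32 to -0.22, and neither lost its call. MGA, which had no call, ran from -0.02 to 0.03 with 1 library left out and changed sign to -0.01 without a filter and to -0.02 without knockdown replicate 3 or without both libraries that stood apart. Counts of list members called higher were the least stable. For MYC partners the count was 1 without a filter, 2 with DESeq2, with the replicate block and without both libraries that stood apart, and 1 to 3 with 1 library left out. For the SIN3 list it was 5 with plain library totals, 1 without a filter, with DESeq2 and without both libraries, and 1 to 3 with 1 library left out. For PRC1.6 it was 1 with upper-quartile factors, plain totals, at least 5 CPM and without both libraries, and 0 to 1 with 1 left out. The cause was not tested. The difference in MYC over the antagonists was -0.72 to -0.58 over its alternatives. Replicate numbers did not pair the libraries (same-numbered correlations of 0.00289, 0.00917 and -0.0225), and with the replicate block the MYC log2 fold change was -0.86 (edgeR adjusted p = 1.04e-14) and no member changed its call. Depth limits MYCL most, with 59 to 239 counts a library.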

Other observations

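EIF4A1, a translation initiation helicase on the list of genes known to be activated by MYC, had a level of 25.7 ± 2.23 CPM without and 31.3 ± 0.63 CPM with the knockdown (SD, n = 3), and the macrophage marker CD68 was at 0.71 and 0.581 CPM. Of their 50-base stretches 41.0% and 78.2% also occur in transcripts of other genes, so levels of such genes in this table may not be those of the mRNA.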
